A study of Mus musculus with 5 samples.

Results

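*Srxn1*, the sulfiredoxin gene, and 9 genes of the NRF2 antioxidant system were followed in olfactory sensory neurons (OSNs) that transcribe the odorant receptor gene *Olfr151*. The 10 genes were found by symbol among the 55411 genes of the count tables, and 9 of them passed the threshold of 140 counts in every library of a condition, as did 10055 rows in all. *Srxn1* was chosen by its rise in the comparison described here. Its values are therefore a description and were not tested. *Prdx1*, *Txnrd1*, *Nqo1*, *Hmox1*, *Gclc*, *Gclm*, *Slc7a11*, *Nfe2l2* and *Keap1* were chosen for their known part in the system, and the question was whether the higher *Srxn1* level came with a change in these genes.

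The mice were 7 weeks old, male and homozygous for Olfr151tm26Mom, a knock-in allele that coexpresses a green fluorophore with the receptor, so controls and exposed mice carried it alike. For 5 h they were given either acetophenone, an agonist of the receptor, at 5% in DMSO, or DMSO without the odorant. Fluorescent live cells were sorted, cells of 4 mice were combined in each pool, and RNA was amplified before sequencing. The sample labels give 200 cells per pool in one field and a larger number in another. For this mouse line the methods of the paper state 200 cells per pool. Control pools 1, 2 and 3 and exposed pools 1 and 3 were compared, so n = 3 and n = 2, and exposed pool 2 was not analysed here. Totals lay between 42780403 and 49527380 counts per library, at which 3 counts are 0.0606 to 0.0701 CPM, that is counts relative to the library total.

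The libraries carried the markers of the labelled cell. *Omp*, a marker of mature OSNs, was counted 724949 to 774399 times in control and 517814 and 580333 times in exposed libraries. The 6 mature OSN markers summed to 52789 to 55723 CPM in control and to 45953 and 46723 CPM in exposed libraries. The dorsal markers *Nqo1* and *Acsm4* summed to 3651 to 4048 CPM in control and 2475 to 2738 CPM in exposed libraries, and 4 ventral markers to 13.8 to 20.1 and 17.1 to 22.8 CPM. The 4 immature OSN markers summed to 686 to 889 CPM in control and 766 to 992 CPM in exposed libraries. Basal cell markers summed to at most 2.44 CPM in any library. The 12 immune markers summed to 23.1 to 182 CPM in control and 67.2 to 230 CPM in exposed libraries. Of these 12 genes 6 were tested, and 4 of the 6 were higher in both exposed libraries than in every control library, beside 20.3% of all rows tested. Of the 6, 5 passed the count threshold through the exposed libraries alone, so a difference was built into their selection. Among the 12, 5, *Ptprc*, *Cybb*, *C1qa*, *C1qb* and *Csf1r*, were at 0 in 1 or 2 control libraries. The 6 support cell markers summed to 75.4 to 257 CPM in control and 117 to 265 CPM in exposed libraries. The 4 globin genes summed to 343, 107 and 12.4 CPM in control pools 1, 2 and 3 and to 15.4 and 6.39 CPM in exposed pools 1 and 3.

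NRF2, encoded by *Nfe2l2*, is a transcription factor that KEAP1 holds in the cytoplasm and delivers for degradation. Oxidants and electrophiles modify KEAP1, and NRF2 then accumulates, pairs with small MAF proteins and binds antioxidant response elements (AREs) of genes for glutathione synthesis, thioredoxin reduction, quinone reduction and heme breakdown. Sulfiredoxin reduces peroxiredoxins that peroxide has overoxidized, and its gene is known as a target of both NRF2 and AP-1, the dimers of FOS and JUN proteins.

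The sequence upstream of the start site is shown for *Srxn1* and for 3 genes it was compared with, because the binding motifs of NRF2 and AP-1 resemble each other. RefSeq promoter windows (GRCm38.p6, 250 bases before to 50 after the start site) were found for 8 of the 10 genes, in 10 windows. *Hmox1* and *Gclc* were not matched. Both strands were searched for TGACNNNGC, called here the ARE core, and for the AP-1 motif TGANTCA. The printed stretches end before the gene's first annotated base, and capitals mark an ARE core or an AP-1 match on either strand. They come from chr2:152105274-152105515 (plus strand), chr4:116685349-116685543 (plus), chr3:122245307-122245556 (plus) and chr8:107403207-107403455 (minus).
Srxn1: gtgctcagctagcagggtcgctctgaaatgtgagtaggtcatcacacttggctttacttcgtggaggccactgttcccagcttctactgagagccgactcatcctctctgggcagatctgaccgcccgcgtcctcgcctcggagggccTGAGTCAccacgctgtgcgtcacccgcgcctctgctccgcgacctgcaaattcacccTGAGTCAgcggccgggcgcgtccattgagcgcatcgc
Prdx1: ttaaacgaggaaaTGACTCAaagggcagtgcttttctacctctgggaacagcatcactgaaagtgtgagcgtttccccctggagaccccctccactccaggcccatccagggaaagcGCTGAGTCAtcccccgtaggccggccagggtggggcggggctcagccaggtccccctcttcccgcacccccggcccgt
Gclm: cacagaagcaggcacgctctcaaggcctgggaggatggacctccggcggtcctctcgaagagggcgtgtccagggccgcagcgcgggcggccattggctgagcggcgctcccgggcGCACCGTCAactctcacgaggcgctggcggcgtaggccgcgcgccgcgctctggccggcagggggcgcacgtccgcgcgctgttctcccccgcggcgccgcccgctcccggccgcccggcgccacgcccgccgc
Nqo1: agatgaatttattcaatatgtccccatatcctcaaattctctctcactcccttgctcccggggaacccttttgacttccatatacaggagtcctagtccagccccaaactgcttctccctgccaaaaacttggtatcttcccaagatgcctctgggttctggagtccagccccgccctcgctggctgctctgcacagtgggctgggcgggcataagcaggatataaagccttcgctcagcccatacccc

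The window of *Srxn1* held 2 AP-1 matches, with first bases 102 and 45 bases before the start site, both spelled TGAGTCA. The nearer one runs on to TGAGTCAGC, which overlaps the wider pattern TGANNNNGC. Its only ARE core match lay after the start site. The window of *Prdx1* held 2 AP-1 matches, 237 and 131 bases before the start site, and an ARE core match at 133 bases that overlaps the second. The AP-1 motif was in the windows of no other listed gene and in 7.81% of all 32851 windows. The ARE core was in windows of 5 of the 8 matched genes (*Srxn1*, *Txnrd1*, *Gclm*, *Prdx1* and *Nfe2l2*), in windows of 14.0% of all 27025 genes and in 12.4% of all windows. The wider TGANNNNGC was in windows of 7 of the 8 genes, of 45.0% of all genes and in 41.3% of all windows. The window of *Nqo1* held none of these motifs. The cyclic AMP response element TGACGTCA was in no window of the listed genes and in 1.79% of all windows. A match is a stretch of letters and does not show that a factor binds there. Sequence outside the windows was not searched, so a window without a match does not show that the gene lacks the motif.

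*Srxn1* (ENSMUSG00000032802, chr2:152105516-152111376, plus strand) was higher in both exposed libraries. It was counted 3776, 6080 and 5491 times in control pools 1, 2 and 3 and 35194 and 35723 times in exposed pools 1 and 3. After scaling of the libraries by TMM, these counts were 86.8, 123 and 119 CPM in the controls and 820 and 854 CPM in the exposed pools. The conditions were far apart: the lowest exposed library held 7.49 times the control mean, and the highest control library 1.12 times. The means were 110 ± 19.8 CPM (SD, n = 3) and 837 ± 24.1 CPM (SD, n = 2), a ratio of 7.64 and a log2 fold change of 2.93. In TPM, a level that accounts for exon length, *Srxn1* was at 135 ± 31.3 in the controls and at 910 ± 64.4 in the exposed pools. The immune markers summed to 182, 23.6 and 23.1 CPM in control pools 1, 2 and 3 and to 230 and 67.2 CPM in exposed pools 1 and 3. The part of immune cells in the *Srxn1* level was not tested.

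**Figure D1:**
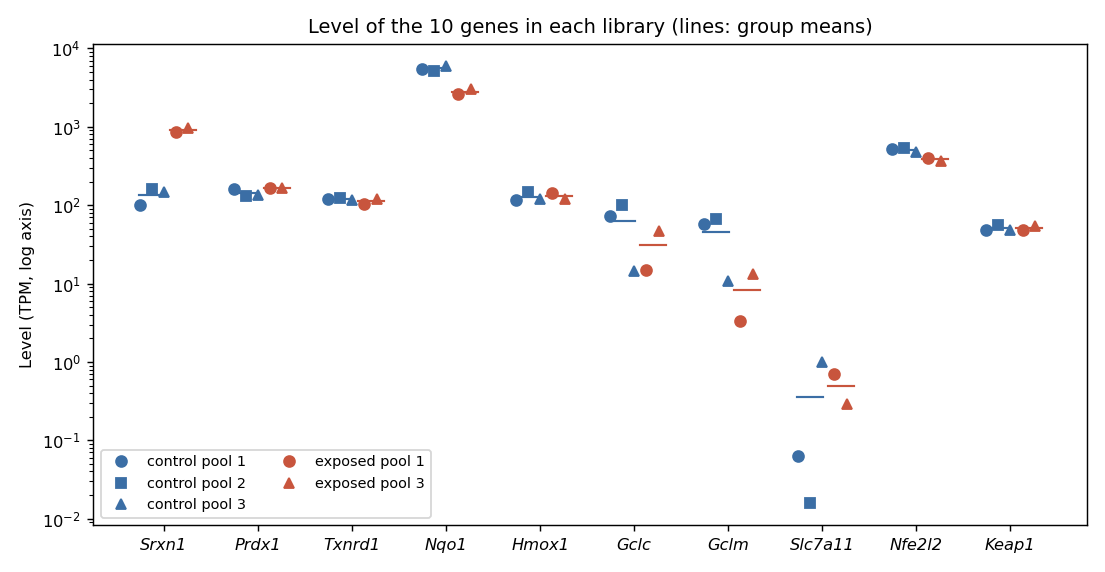
Level of each of the 10 genes in each library, in TPM on a log axis, with control pools in blue, exposed pools in red and group means as lines. *Srxn1* stands at 865 and 956 TPM in the exposed pools and at 99.1 to 158 TPM in the control pools, *Nqo1* is the most abundant of the 10 in every library, and *Gclc* and *Gclm* spread widely among the control pools.

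*Prdx1* and *Txnrd1* did not pass the test. *Prdx1* encodes a cytosolic peroxiredoxin, the kind of enzyme that sulfiredoxin repairs. Its level was 151, 108 and 118 CPM in the control pools and 169 and 160 CPM in the exposed pools. Both exposed libraries lay above every control library, by little for control pool 1, and the log2 fold change was 0.39 with a standard error (SE) of 0.19 and a 95% interval from -0.06 to 0.84 (adjusted p = 0.327, by the quasi-likelihood test of edgeR, adjusted after Benjamini and Hochberg over 10055 rows). *Txnrd1* encodes cytosolic thioredoxin reductase, which keeps thioredoxin reduced. Its level was 264, 239 and 237 CPM in the control pools and 246 and 272 CPM in the exposed pools. The groups overlapped, and the log2 fold change was 0.07 with a 95% interval from -0.26 to 0.41 (edgeR adjusted p = 0.825), with -0.10 under spike-in scaling. Counting did not use strand, and an antisense gene across *Txnrd1*, *Gm38560*, had 190 to 439 counts against 10540 to 11801 for *Txnrd1*.

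*Nqo1* was lower in the exposed neurons. It encodes a quinone reductase, is a textbook NRF2 target, and also marks dorsal OSNs, the class to which *Olfr151* neurons belong. It was counted 115648, 108362 and 123974 times in the control pools and 58449 and 61539 times in the exposed pools. These are 2659, 2193 and 2681 CPM against 1363 and 1472 CPM, so the highest exposed library lay below the lowest control library. *Nqo1* ranked 18th by mean TPM among all rows, with 5543 ± 432 TPM in controls and 2799 ± 270 TPM after exposure. Its log2 fold change was -0.83 with an SE of 0.13 and a 95% interval from -1.14 to -0.51 (edgeR adjusted p = 0.0293). The call was lost in 4 of 13 alternatives, among them without exposed pool 1 (log2 fold change -0.78, edgeR adjusted p = 0.246), without exposed pool 3 (-0.91, 0.132) and with ERCC spike-in scaling (-0.99, 0.9996). The other dorsal marker, *Acsm4*, had a log2 fold change of -0.20 (edgeR adjusted p = 0.434), and *Cnga2*, the ion channel of odorant transduction, fell by 0.83 on the log2 scale (edgeR adjusted p = 0.0193), a call that was lost without exposed pool 1 (adjusted p = 0.109) or 3 (0.128) and in 4 of 13 alternatives in all. *Gap43*, a growth cone protein that marks immature OSNs, rose by 0.94 on the log2 scale (edgeR adjusted p = 0.0893), and its call was lost in 9 of 13 alternatives, among them without any one library. Of the 6 mature OSN markers, 1 had a log2 fold change above 0 and 5 below, beside 4821 and 5234 of all rows. Of the 4 immature markers, 3 lay above 0 and 1 below. The mature marker above 0 was *Stoml3* (0.09, edgeR adjusted p = 0.678). The immature marker below 0 was *Tubb3* (-0.60, edgeR adjusted p = 0.198), lower in both exposed libraries than in every control library. The part of neuron maturity in the *Nqo1* level was not tested. In pooled neurons, fewer cells of a type and less RNA per cell cannot be told apart.

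*Hmox1*, heme oxygenase 1, is often used as a sign of NRF2 activity and is also made by macrophages that break down heme. Its level was 64.0, 70.7 and 59.6 CPM in the control pools and 83.4 and 66.3 CPM in the exposed pools. Exposed pool 3 lay within the range of the controls, and the log2 fold change was 0.21 with a 95% interval from -0.29 to 0.71 (edgeR adjusted p = 0.645), with -0.07 under spike-in scaling. Exposed pool 1, the highest in *Hmox1*, also had the highest summed immune markers, 230 CPM. The part of those cells in the *Hmox1* level was not tested.

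The 2 genes of glutathione synthesis differed widely among the control pools. *Gclc* and *Gclm* encode the catalytic and the modifier subunit of glutamate-cysteine ligase, the rate-limiting enzyme of the pathway. *Gclm* was at 114, 116 and 19.5 CPM in control pools 1, 2 and 3 and at 6.95 and 26.7 CPM in exposed pools 1 and 3. *Gclc* was at 84.6, 103 and 15.6 CPM in the same control pools and at 18.7 and 55.8 CPM in the exposed pools. For both genes control pool 3 stood with or below the exposed pools and apart from the other controls. The log2 fold changes were -2.30 with a 95% interval from -4.56 to -0.05 for *Gclm* (edgeR adjusted p = 0.254) and -0.86 with an interval from -2.88 to 1.15 for *Gclc* (0.628). Without control pool 3, *Gclm* passed the test (log2 fold change -2.75, edgeR adjusted p = 0.0621) and *Gclc* did not (-1.31, 0.236). Leaving out exposed pool 1 or 3 gave log2 fold changes of -1.65 or -3.61 for *Gclm*, and neither passed. Among all rows tested, 509 (5.06%) were likewise below 0.5 times both other controls in control pool 3, and 513 (5.10%) in control pool 1. Globin genes, at 343 and 107 CPM in control pools 1 and 2 and at 6.39 to 15.4 CPM in the other 3 libraries, were high in the same pools. Their part was not tested.

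*Slc7a11*, the cystine transporter that supplies glutathione synthesis, was low. It was counted 12, 3 and 184 times in the control pools and 142 and 53 times in the exposed pools, and did not pass the count threshold. The groups overlapped, with control pool 3 the highest of the 5.

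The regulators themselves did not pass the test. *Nfe2l2* was at 612, 562 and 521 CPM in the control pools and at 515 and 446 CPM in the exposed pools. Both exposed libraries lay below every control library, exposed pool 1 by little, and the log2 fold change was -0.23 with a 95% interval from -0.56 to 0.10 (edgeR adjusted p = 0.416). *Nfe2l2* was among the more abundant of the 10 genes, with 510 ± 31.5 TPM in controls and 387 ± 22.8 TPM in exposed pools. *Keap1* was at 70.1, 72.0 and 65.6 CPM in the control pools and at 75.9 and 80.3 CPM in the exposed pools. These lay just above the controls, and the log2 fold change was 0.17 with a 95% interval from -0.27 to 0.62 (edgeR adjusted p = 0.663), with -0.03 under spike-in scaling. NRF2 is controlled largely through the amount and place of its protein, which these counts do not measure.

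Of the 8 tested genes other than *Srxn1*, edgeR therefore called 0 higher and 1 lower, where 3.42% of all rows were called higher and 1.85% lower. At an unadjusted p under 0.05, 0 were higher and 2, *Nqo1* and *Gclm*, were lower, beside 927 and 997 of all 10055 rows. DESeq2's Wald test called 0 higher and 1, *Nqo1*, lower, beside 725 and 769 of all rows. Both exposed libraries were above every control library for 2 of the 8 (*Prdx1* and *Keap1*) and below for 2 (*Nqo1* and *Nfe2l2*), against 20.3% and 19.6% of all rows. Their median log2 fold change was -0.08, beside -0.03 over all rows tested. All 8 passed the count threshold in both conditions.

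**Figure D2:**
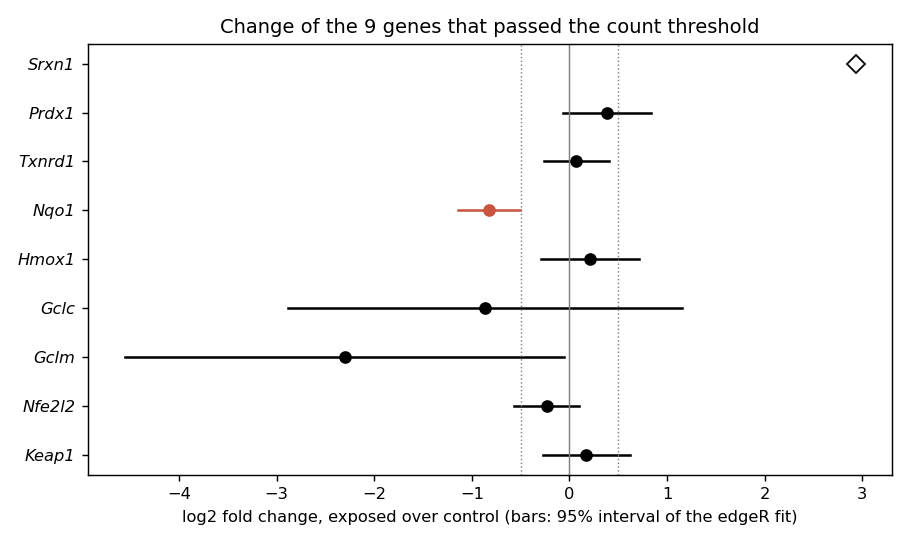
log2 fold change of the 9 genes that passed the count threshold, exposed over control, with the 95% interval of the edgeR fit as bars. *Srxn1*, drawn as an open diamond with no interval because it was chosen by this comparison, lies at 2.93, *Nqo1* in red is the only one of the other 8 that was called, and dotted lines mark the fold change threshold of 0.5.

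Of 30 further NRF2 targets listed for their known function, 22 were tested, 1 rose and 1 fell, beside 3.42% and 1.85% of all rows. DESeq2 called 2 higher and 1 lower, beside 725 and 769 of all 10055 rows. At an unadjusted p under 0.05, 4 were higher and 2 lower, beside 927 and 997 of all rows. Both exposed libraries were above every control library for 7 of the 22 and below for 4, beside 20.3% and 19.6% of all rows. Of the 22, 4 passed the count threshold through the exposed libraries alone and 1 through the control libraries alone. The median log2 fold change was 0.01 over the 17 that passed the count threshold in both conditions, beside -0.03 over all 8939 such rows. *Tkt*, transketolase of the pentose phosphate pathway, was at 145, 140 and 166 CPM in the control pools and at 236 and 244 CPM in the exposed pools. It rose by 0.67 on the log2 scale (SE 0.15, edgeR adjusted p = 0.0747), and the call was lost in 8 of 13 alternative analyses, among them without either exposed pool. *Abcc1*, an exporter of glutathione conjugates, was at 613, 739 and 690 CPM in the control pools and at 195 and 260 CPM in the exposed pools. It fell by 1.58 on the log2 scale (SE 0.18, edgeR adjusted p = 0.00874), and the call was kept in 11 of 13 alternatives.

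The 3 most abundant targets of that list were not called by edgeR. *Fth1*, the ferritin heavy chain, had a log2 fold change of 0.58 (adjusted p = 0.141 by edgeR and 0.0353 by DESeq2). *Taldo1*, transaldolase, had -0.58 (edgeR adjusted p = 0.204), and *Sqstm1*, the autophagy receptor p62 that binds KEAP1, had 0.37 (0.192). *Tkt* and *Taldo1* act in the same branch of the pentose phosphate pathway, and their values had opposite signs. *G6pdx* and *Pgd*, also of that pathway, had log2 fold changes of 0.50 and 0.26 (edgeR adjusted p = 0.218 and 0.474).

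Among 16 genes of the peroxiredoxin and thioredoxin system, 15 were tested and 1 rose, beside 3.42% of all rows. DESeq2 called 2 higher, *Txnrd3* and *Sesn2*, and 1 lower, *Prdx4*, beside 725 and 769 of all 10055 rows. *Txnrd3* passed the count threshold through the exposed libraries alone, so a difference was built into its selection. *Prdx4* had a log2 fold change of -0.80 (edgeR adjusted p = 0.166). *Sesn2*, sestrin 2, a stress-induced protein known to promote the removal of KEAP1 by autophagy, was at 25.2, 25.3 and 21.1 CPM in the control pools and at 75.8 and 52.5 CPM in the exposed pools. It rose by 1.43 on the log2 scale (SE 0.27, edgeR adjusted p = 0.0444), and the call was lost in 5 of 13 alternatives, among them without either exposed pool. *Prdx3*, the mitochondrial peroxiredoxin, had a log2 fold change of -0.34 (edgeR adjusted p = 0.380), *Txn1*, thioredoxin, 0.01 (0.993), with -0.14 under spike-in scaling, and *Prdx5* -0.24 (0.674). The median over the 14 genes that passed the count threshold in both conditions was 0.02.

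Of 17 genes of glutathione metabolism, 11 were tested and edgeR called 0. At an unadjusted p under 0.05, 1 was higher and 1 lower, beside 927 and 997 of all 10055 rows. DESeq2 called 1 higher and 1 lower, beside 725 and 769 of all rows. *Mgst3*, a microsomal glutathione transferase, had the highest TPM of the list and a log2 fold change of -0.84 (adjusted p = 0.176 by edgeR and 0.0425 by DESeq2). *Slc3a2*, the partner of *Slc7a11* in cystine import, had 0.17 (edgeR adjusted p = 0.510), with -0.08 under spike-in scaling, and *Gpx4*, the lipid peroxide reductase, -0.20 (0.752). The median over the 10 genes that passed in both conditions was -0.25. Of 9 other antioxidant genes 6 were tested, and edgeR and DESeq2 called 0. At an unadjusted p under 0.05, 1 was higher and 0 lower, beside 927 and 997 of all rows. The superoxide dismutases *Sod1* and *Sod2* had log2 fold changes of 0.60 and 0.33 (edgeR adjusted p = 0.206 and 0.341) and *Park7* had -0.16 (0.760).

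Among 13 regulators of NRF2, 10 were tested and 1 rose, beside 3.42% of all rows. DESeq2 called 2 higher and 0 lower, beside 725 and 769 of all 10055 rows. At an unadjusted p under 0.05 edgeR had 3 higher and 0 lower, beside 927 and 997 of all rows. *Mafk*, a small MAF partner of NRF2 and of its competitor BACH1, was at 14.3, 30.2 and 27.5 CPM in the control pools and at 67.0 and 64.9 CPM in the exposed pools. It rose by 1.46 on the log2 scale (SE 0.35, edgeR adjusted p = 0.0902), and the call was lost in 7 of 13 alternatives, among them without either exposed pool. *Maff*, another small MAF gene named after its values were seen, was counted 212, 301 and 181 times in the control pools and 440 and 912 times in the exposed pools, with a log2 fold change of 1.69 (edgeR adjusted p = 0.134). *Nfe2l1*, which encodes the related factor NRF1, had a log2 fold change of 0.23 (edgeR adjusted p = 0.602), with -0.06 under spike-in scaling, and *Rbx1*, a subunit of the ubiquitin ligase that KEAP1 serves, -0.03 (0.953).

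Of 9 genes for AP-1 and C/EBP factors, 8 were tested and 2 were called higher, beside 3.42% of all rows. Only 5 of the 8 passed the count threshold in both conditions. *Fosl1* and *Fosl2* passed it through the exposed libraries alone and *Jund* through the control libraries alone, so a difference was built into their selection. *Fosl2*, a FOS-related subunit of AP-1, was counted 31, 64 and 54 times in the control pools and 323 and 388 times in the exposed pools. Its log2 fold change was 2.98 (SE 0.56, edgeR adjusted p = 0.0444), and the call was lost with no count filter (adjusted p = 0.175). *Junb* was at 89.0, 41.4 and 87.4 CPM in the control pools and at 266 and 190 CPM in the exposed pools, and rose by 1.65 (SE 0.35, edgeR adjusted p = 0.0724). Both calls were lost in 7 of 13 alternatives, among them without either exposed pool. *Fos* had a log2 fold change of 0.90 (adjusted p = 0.109 by edgeR and 0.00831 by DESeq2) and *Jun* -0.52 (0.141 and 0.0392). DESeq2 called 5 of the 8 higher and 2 lower, beside 725 and 769 of all 10055 rows. *Fosl1*, *Fosl2* and *Jund*, whose selection favoured a difference, are among these calls. The median over the 5 genes that passed in both conditions was 0.90. These genes answer many stimuli, neuronal activity among them, and the lists were drawn up with earlier results of these libraries known.

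**Figure D3:**
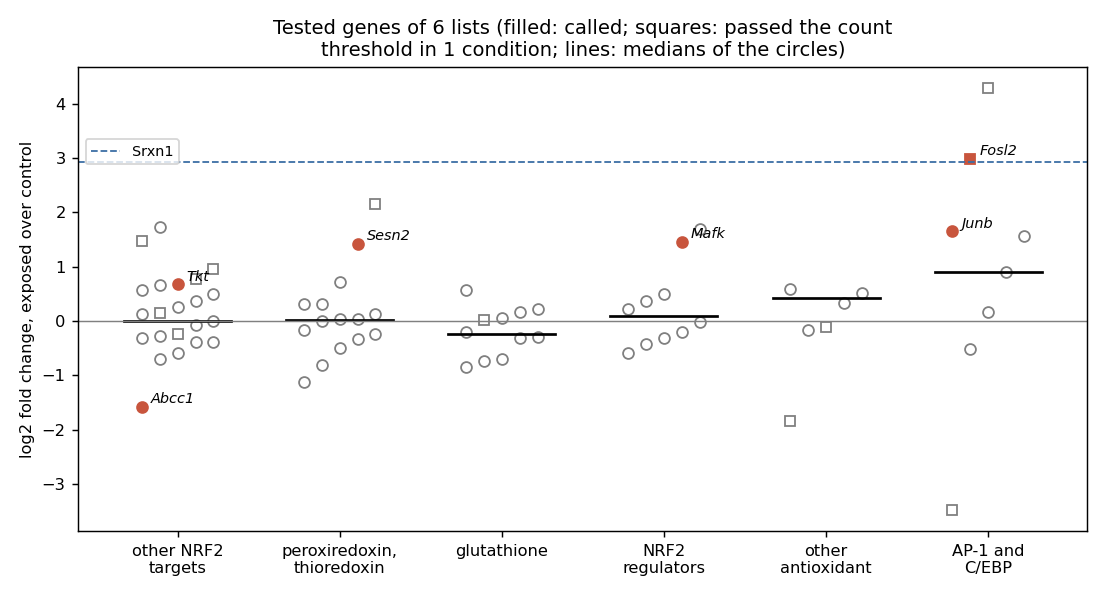
log2 fold change, exposed over control, of the tested genes of 6 lists, with one symbol per gene, filled where edgeR called it, squares for genes that passed the count threshold in 1 condition alone, and black lines at the medians of the circles. These medians are 0.01, 0.02, -0.25, 0.10, 0.43 and 0.90 from left to right, and the dashed line marks *Srxn1* at 2.93.

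The profile of *Srxn1* over the 5 libraries was closest to that of *Tent5a*, *B230216N24Rik*, *Dlg2*, *D430020J02Rik* and *Tmem163*. Likeness was the root mean square difference of log2(CPM + 1) values, each gene centred on its own mean, and it was 0.0964 for *Tent5a* and 0.209 for *Tmem163*, the first and the last of the 5. *Tent5a*, a poly(A) polymerase family gene, was counted 370, 697 and 632 times in the control pools and 3590 and 4063 times in the exposed pools. *Dlg2*, which encodes a synaptic scaffold protein, was counted 6717, 9600 and 7563 times in the control pools and 51378 and 45248 times in the exposed pools. Both differ between the conditions about as much as *Srxn1*, which is what the measure selects. *Tmem163* differs from *Srxn1* in this, with 0, 4 and 0 counts in the control pools and 216 and 254 in the exposed pools. Its ratio of exposed to control CPM was 206, against 7.64 for *Srxn1*. The 1 CPM added to each value narrows such a difference where counts are low. Of the 8 other listed genes the closest was *Prdx1*, with a difference of 1.29 and rank 2173 of 10054, and the farthest *Gclm*, with 2.73 and rank 9997.

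**Figure D4:**
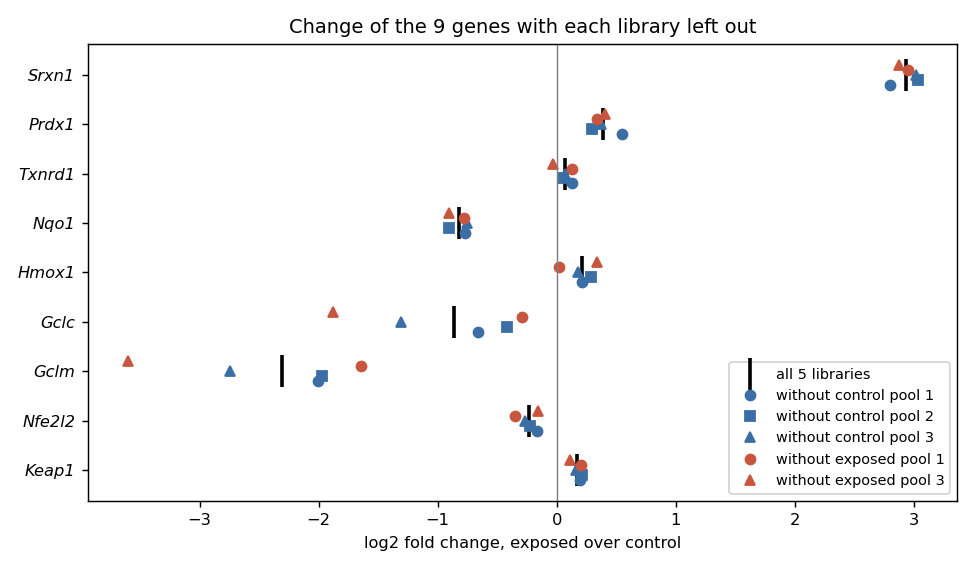
log2 fold change of the 9 genes with all 5 libraries (black bar) and with each library left out (blue for a control pool, red for an exposed pool). *Srxn1* stays between 2.80 and 3.03 and *Nqo1* between -0.91 and -0.75, while *Gclm* ranges from -3.61 to -1.65 and *Gclc* from -1.88 to -0.29.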

How the data were processed

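RNA of pooled, FAC-sorted *Olfr151* neurons was sequenced in 5 libraries that the labels assign to a condition and a pool number. The authors mapped 50-base reads with STAR 2.7.0a to GRCm38 and deposited raw counts per gene from featureCounts 1.6.3, summed over exons without strand. Reads that map to several places were not counted, which lowers genes with near-identical copies. No molecular identifiers were used. Symbols came from GENCODE M21 and matched 55144 of 55411 genes.

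The quasi-likelihood test of edgeR 4.0.16 (TMM scaling, robust glmQLFit, glmQLFTest, R 4.3.3) compared the 2 conditions over all 5 libraries. A gene was tested if all libraries of a condition reached 140 counts, the dip between low and expressed genes in the distribution of log2 counts. It was called if the p-value adjusted after Benjamini and Hochberg was below 0.1 and the log2 fold change exceeded 0.5 in size. Tables and figures were made in Python 3.11.15. Totals were 42780403 to 49527380 counts, and with 2 exposed pools their spread rests on 1 difference per gene. No 2 libraries were alike within counting error.

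The members and gene lists were chosen with earlier results of these data known. *Sqstm1*, *Txn1* and *Gsr* are shared between lists, so the counts of those lists overlap. Named were the 10 members, of each other list the called genes and the 3 with the highest mean TPM, and the 5 genes most like *Srxn1*. *Maff*, *Txnrd3*, *Prdx4*, *G6pdx*, *Pgd*, *Stoml3* and *Tubb3* were named after their values were seen. Of the cell type lists, summed levels are given in place of most single genes. Alternatives were DESeq2 1.42.0, its size factors, ERCC spike-in scaling, other count filters, an adjusted p of 0.05, a replicate block, each library left out and, chosen after seeing the data, offsets for 20 bins of GC content.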

Additional observations from a re-analysis of the deposited data

How the results depend on the processing

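Under 13 alternatives, the log2 fold change of *Srxn1* stayed between 2.66 and 3.05, and edgeR and DESeq2 called 0 of the other 8 genes higher in each. *Srxn1* was lowest with ERCC spike-in scaling (2.66), which moved the median over all genes by -0.21 on the log2 scale. Genes called higher and lower, 344 and 186 in the analysis reported, were 725 and 769 with DESeq2, 94 and 49 with ERCC scaling, 162 and 74 with at least 10 counts in 2 libraries, and 190 and 90 at an adjusted p under 0.05. They ranged from 93 to 348 and from 19 to 429 with a library left out. Fewest higher calls were made without exposed replicate 1 (93 and 19), and most lower calls without control replicate 3 (348 and 429). Without exposed replicate 3 there were 109 and 78, and without control replicate 2 there were 160 and 64. Among the 8 listed genes, those called lower were 0 with ERCC scaling and 0 to 2 with a library left out, the 2 being *Nqo1* and *Gclm* without control replicate 3. Other NRF2 targets called higher, 1 as reported, were 2 with DESeq2, 0 with ERCC scaling, 0 with the 10-count filter, 0 at an adjusted p under 0.05 and 0 to 1 with a library left out. Those called lower were 0 with ERCC scaling and 1 with each library left out. Over the redox, regulator and AP-1 lists, 4 genes were called higher and 0 lower, against 10 and 4 with DESeq2, 1 and 1 with ERCC scaling, 1 and 0 with the 10-count filter, 2 and 0 at an adjusted p under 0.05, and 0 to 6 and 0 to 2 with a library left out. Those lists held 50 tested genes, and of all 10055 rows edgeR called 3.42% higher and 1.85% lower. Among their calls are *Fosl2* by both tests and *Fosl1*, *Txnrd3* and *Jund* by DESeq2. These genes passed the count threshold through 1 condition alone, so a difference was built into their selection. The cause of the changes in these counts was not tested.

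A replicate block on pools 1 and 3 of each condition left 17 genes called higher and 3 lower, with 0 and 0 of the 8 listed genes, 0 and 0 of the other NRF2 targets and 0 and 0 of the redox lists. Deviations of pools with the same number correlated at 0.0276 (replicate 1) and -0.0718 (replicate 3) across genes, and the labels do not say that a number marks a shared day, so the pools were not treated as pairs. *Nqo1* was not called with the block (log2 fold change -0.91, edgeR adjusted p = 0.121). The fit also has fewer libraries. Values that changed sign, none of them called, were those of *Txnrd1* (-0.098), *Hmox1* (-0.0652), *Keap1* (-0.0289), *Txn1* (-0.136), *Slc3a2* (-0.077) and *Nfe2l1* (-0.0585) with ERCC scaling, and *Txn1* (-0.203) with the replicate block. With a library left out, the range crossed 0 for *Txnrd1* (-0.0307 to 0.131), *Txn1* (-0.234 to 0.246), *Gpx4* (-0.482 to 0.0241), *Rbx1* (-0.0882 to 0.0752) and *Park7* (-0.321 to 0.0707).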
